A study of Homo sapiens with 6 samples.

Results

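Transcript levels in Hep G2 cells transfected with a *miR-497* mimic were compared with those in non-transfected (NT) cells, by sequencing of total RNA (mRNA-seq). Genes were compared when their RPKM (a read number normalized for transcript length and library depth, as deposited) was above 0 in both libraries, which held for 14768 of the 21863 gene symbols measured. Single genes and groups were described for the 11231 of these with an RPKM of at least 1 in one of the libraries. The study asked which transcripts *miR-195* and *miR-497* target, with an Ago2-IP-seq and a total RNA library from each of 3 conditions, 6 libraries in all. Hep G2 is a cell line from a human liver tumor. The mimic is a synthetic dsRNA, given at 5 nM with a lipid reagent, and these cells were collected at 24 hours. The NT cells received no mimic, and their label gives a time of 0 hours. Whether the NT cells received the lipid reagent is not given clearly in the sources used here. None of the 6 libraries came from cells given a control dsRNA, so transfection itself, time in culture and *miR-497* cannot be told apart in this comparison. The study compared the mimics with a control dsRNA on expression arrays at a later time, which were not used here. Each side is 1 library, so no test between conditions was possible, and raised or lowered is used below only for a change past a stated fold.

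MicroRNAs are loaded onto Argonaute proteins and guide them to messenger RNAs, mostly by pairing of the seed, bases 2 to 8, with sites in the 3′UTR. Paired messengers are translated less and are often shortened at the poly-A tail and degraded, so that a target's level in total RNA can fall. The *miR-15* family, to which *miR-497* and *miR-195* belong, is known for targeting cyclins and cyclin-dependent kinases that drive cells from G1 into S phase.

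The mature sequences are shown because the seed, in capitals, defines the sites used below. RefSeq places both genes on the minus strand of chromosome 17 of GRCh38.p14, with mature *miR-497-5p* at chr17:7017979-7017999 and *miR-195-5p* at chr17:7017667-7017687. Both miRNAs carry the same 7 seed bases and differ after them.
miR-497-5p: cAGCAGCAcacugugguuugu
miR-195-5p: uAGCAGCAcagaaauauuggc

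The site that pairs with this seed is TGCTGCT (7-base site), and TGCTGCTA is the same site followed by an A (8-base site). Both were searched on the sense strand of the 3′UTRs of annotated coding transcripts, and every 8-base site also counts as a 7-base site. Sites of 6 of the 8 G1/S genes that the study assayed with 3′UTR reporters, and of the kinase gene *WEE1*, are printed to show how many each transcript carries and which are followed by an A. Capitals mark the 7-base or 8-base site, in the sense of the transcript.
CCNE1 3′UTR, GRCh37 chr19:30314920-30314948 (plus strand): cgtgctcccgaTGCTGCTAtggaaggtgc
CCNE1 3′UTR, GRCh37 chr19:30315158-30315186 (plus strand): tgttttgtaagTGCTGCTAtatctatcca
CDC25A 3′UTR, GRCh37 chr3:48200053-48200081 (minus strand): ttacacagaaaTGCTGCTggccaaatagc
CDC25A 3′UTR, GRCh37 chr3:48199744-48199772 (minus strand): ggtactggggcTGCTGCTAtttaagccaa
BTRC 3′UTR, GRCh37 chr10:103313085-103313113 (plus strand): gactgcttcagTGCTGCTAtcagaagatg
BTRC 3′UTR, GRCh37 chr10:103315028-103315056 (plus strand): tttctgtcataTGCTGCTAttacaaagtg
CCND3 3′UTR, GRCh37 chr6:41903047-41903075 (minus strand): attgacagcttTGCTGCTgaaggctcatt
E2F3 3′UTR, GRCh37 chr6:20493141-20493169 (plus strand): taccattgagtTGCTGCTAttaaagctca
CCND1 3′UTR, GRCh37 chr11:69468072-69468100 (plus strand): ttcacattgttTGCTGCTAttggaggatc
WEE1 3′UTR, GRCh37 chr11:9610403-9610431 (plus strand): ctgtggtggtgTGCTGCTtatagtttgct
WEE1 3′UTR, GRCh37 chr11:9610682-9610710 (plus strand): ccttgtgaattTGCTGCTAttttagtttt
*CCNE1* and *BTRC* thus carried 2 sites of 8 bases, while the site of *CCND3* was not followed by an A. *CDK6*, also assayed and not printed, carried 2 sites of 7 bases in a 3′UTR of 10219 bases, neither followed by an A. *CDK4*, also assayed, had no 7-base site in the transcript with the longest coding sequence and had one in another transcript.

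The NT library held about 24700000 mapped reads and the *miR-497* library about 30900000, as estimated from the RPKM steps. Liver markers were present in both, from *TTR* (1.52 RPKM in NT, 2.68 with *miR-497*) to *AFP*, the fetal plasma protein of hepatoma cells (4884 and 4295 RPKM). Of 8 markers of blood, endothelial, fibroblast, nerve and squamous cells, none reached 1 RPKM in either library, with *CD3E*, *COL3A1*, *KRT5* and *PTPRC* at 0, and their summed level was 0.352 RPKM in NT and 0.537 RPKM with *miR-497*. Read numbers were inferred from the steps between RPKM values for 9604 of the 11231 genes (85.5%), with medians of 789 reads in NT and 1044 with *miR-497*. The 95% intervals given for ratios come from these reads, by the exact binomial method. They cover counting error only, and not the spread between cultures or libraries.

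Most transcripts differed little between the libraries. The median log2 change was 0.06, the middle 50% of genes lay between -0.18 and 0.38, and 9405 genes (83.7%) stayed within 1.5-fold either way. Below 0 lay 4993 genes (44.5%). A level at least 2-fold higher was seen for 297 genes (2.64% of the 11231) and one at least 2-fold lower for 40 genes (0.356%). At 1.5-fold, 1477 genes (13.2%) were raised and 349 (3.11%) lowered. The raised genes were mostly weakly expressed, with a median of 1.20 RPKM in NT and 126 of the 297 under 1 RPKM. Of the 254 raised genes with inferred reads, 236 had an interval wholly above a ratio of 1 and 32 had one wholly past 2-fold. For the lowered genes these numbers were 21 and 5 of 33. Since these genes were selected by the same ratio, an interval off 1 gives them no separate support. Over all 9604 genes with inferred reads, 3800 had an interval wholly above 1 and 2862 one wholly below. In the *miR-195* library, set against the same NT library, 217 genes were raised and 141 lowered 2-fold or more.

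**Figure D1:**
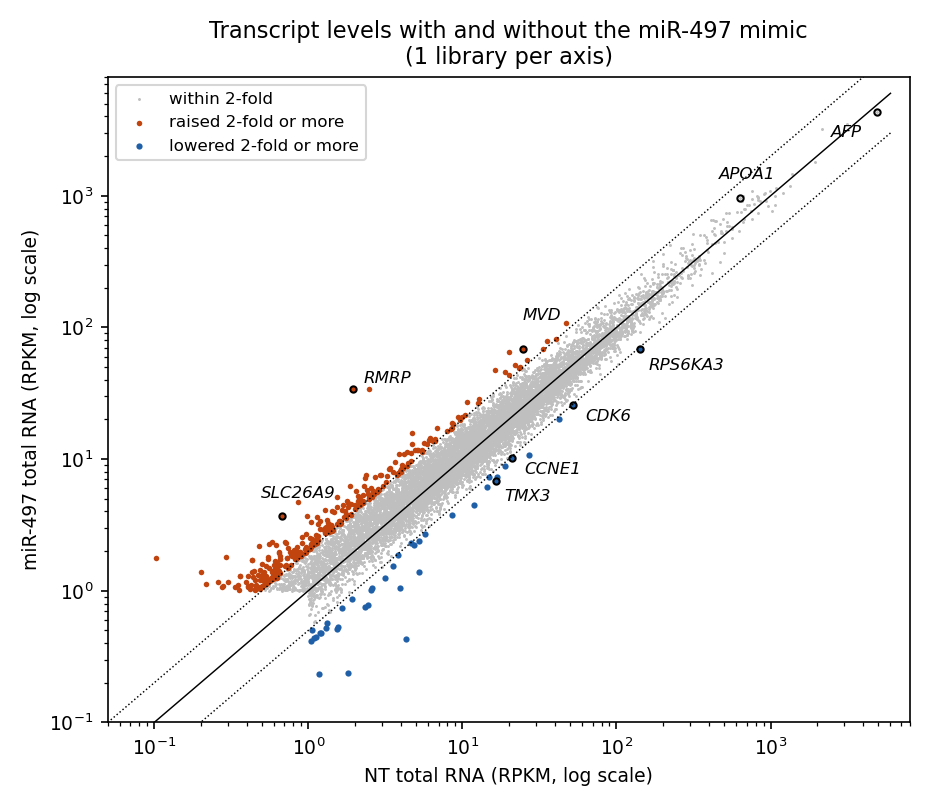
RPKM of each of the 11231 genes in the NT library (horizontal axis) and the *miR-497* library (vertical axis), both on log scales, with lines at equal levels (solid) and at 2-fold (dotted). The 297 raised genes lie mostly at the lower left, while *CCNE1*, *CDK6* and *RPS6KA3* lie just under the lower 2-fold line and *RMRP* far above the upper one.

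The G1/S genes chosen by the study for reporter assays differed widely in total RNA. *CCNE1*, cyclin E1, which activates CDK2 at the start of S phase, was at 21.0 RPKM in NT and 10.2 RPKM with *miR-497*, a ratio of 0.489 (0.442 to 0.540). *CDK6*, the kinase partner of the D cyclins, was at 52.3 and 25.9 RPKM, a ratio of 0.495 (0.483 to 0.508). These were the 2 members of the group lowered 2-fold, and the interval of each reached past a ratio of 0.5. With a pseudocount of 1 their log2 changes were -0.97 and -0.99, inside 2-fold, and that of *CDK6* was -0.83 when taken relative to genes of like 3′UTR length and composition (centring, an alternative added after the values had been seen). *CDC25A*, the phosphatase that removes inhibitory phosphates from CDKs, was lowered 1.5-fold, from 18.6 to 10.9 RPKM (ratio 0.589, 0.548 to 0.634). *BTRC*, a substrate receptor of an SCF ubiquitin ligase, was at 9.23 and 5.90 RPKM (0.639, 0.590 to 0.691). Smaller differences, with intervals below a ratio of 1 but inside 1.5-fold, were measured for *CCND3*, cyclin D3 (10.7 and 8.22 RPKM, ratio 0.765), and *E2F3*, an E2F transcription factor (9.35 and 7.41 RPKM, ratio 0.792).

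Cyclin D1 and CDK4, the most widely studied drivers of G1 progression, were nearly level. *CCND1* was at 43.8 RPKM in NT and 42.3 RPKM with *miR-497* (ratio 0.967, 0.930 to 1.01), although its 3′UTR holds the 8-base site printed above. *CDK4* was at 133 and 129 RPKM (0.970, 0.933 to 1.01). With *miR-195*, set against the same NT library, the 8 genes stood at 6.76 RPKM for *CCNE1*, 22.7 for *CDK6*, 6.31 for *CDC25A*, 4.37 for *BTRC*, 3.42 for *CCND3*, 6.87 for *E2F3*, 47.0 for *CCND1* and 86.9 for *CDK4*. Among these genes the mimic libraries stood furthest apart for *CCND3*.

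**Figure D2:**
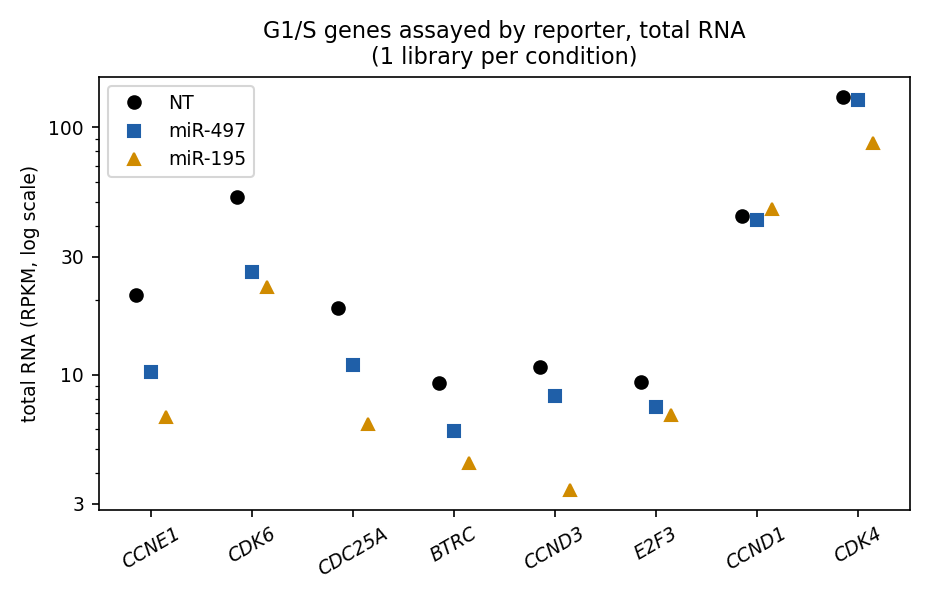
Total RNA levels (RPKM, log scale) of the 8 reporter-assayed G1/S genes in the NT, *miR-497* and *miR-195* libraries, 1 point per library. *CCNE1* and *CDK6* stand 2-fold lower with *miR-497* than in NT, and *CCND1* and *CDK4* stand at nearly the same level.

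The full list of G1/S regulators, which includes these 8 genes, had a median log2 change of -0.29 beside 0.06 for all genes. Of 33 regulators listed 30 were compared, and 7 were lowered 1.5-fold (23.3%, beside 3.11% of all genes, and 5 after centring). *CCNE1*, *CDK6*, *CDC25A* and *BTRC* were 4 of these 7. *CCNA2*, cyclin A2 of S phase, was at 105 and 65.3 RPKM (ratio 0.621, 0.599 to 0.644) and holds no 7-base site. The CDK inhibitor *CDKN1A*, p21, was at 25.3 RPKM in NT and 36.2 RPKM with *miR-497* (1.44, 1.35 to 1.53). *CCND2*, with an 8-base site, was the 1 member raised 1.5-fold, from 0.75 to 1.14 RPKM, was compared only through its level with *miR-497*, and was inside 1.5-fold under both scalings and both pseudocounts.

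Genes of later cell-cycle steps were lower more uniformly than the G1/S regulators, mostly without a 7-base site. All 36 mitosis and checkpoint genes were compared, with a median log2 change of -0.56. On the log2 scale 35 lay below 0 (97.2%, beside 44.5% of all compared genes). At 1.5-fold 17 were lowered (47.2%, beside 3.11%), 9 after centring. Of the 36, 6 had a 7-base site, beside 13 of the 30 G1/S regulators and 28.8% of all compared genes with a 3′UTR. Among the 36 genes *WEE1*, the kinase that holds CDK1 inactive, was lowered 2-fold, from 14.8 to 7.31 RPKM (ratio 0.493, 0.454 to 0.536). Its log2 change of -1.02 was -0.82 after centring. *CDK1* itself, at 78.3 RPKM in NT, had a ratio of 0.562 (0.535 to 0.590). *ANLN*, the actin-binding scaffold of the cytokinetic ring, was at 43.2 and 21.9 RPKM, with no interval because its reads could not be inferred. It holds no 7-base site but holds GCTGCTA, the last 7 bases of the 8-base site. Polo-like kinase 1, *PLK1*, at 73.6 and 67.1 RPKM, and *CDC20*, at 45.4 and 43.2 RPKM, were members that differed little.

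The DNA replication genes showed a similar shift of smaller size. All 46 were compared, with a median log2 change of -0.37, and 40 lay below 0 (87.0%, beside 44.5% of all compared genes). At 1.5-fold 8 were lowered (17.4%, beside 3.11%), 13 after centring, and 0 raised. Of the 46, 6 had a 7-base site. *POLE2*, a subunit of DNA polymerase epsilon, had the lowest ratio, at 14.6 RPKM in NT and 8.72 RPKM with *miR-497* (0.596, 0.532 to 0.669). *GMNN*, geminin, the inhibitor of origin licensing, was at 104 and 68.4 RPKM (0.659, 0.625 to 0.694). The sliding clamp gene *PCNA* was at 471 and 314 RPKM, just inside 1.5-fold. At the other end *POLD2*, a subunit of DNA polymerase delta, was at 37.7 and 49.2 RPKM (1.31, 1.23 to 1.39). After centring the medians were -0.53 for the mitosis genes and -0.47 for the replication genes.

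Genes with a site for the seed were described next, over the 10572 compared genes with an annotated 3′UTR, of which 296 (2.8%) were lowered and 1371 (13%) raised 1.5-fold, and 23 (0.218%) were lowered and 259 (2.45%) raised 2-fold. The 616 genes with an 8-base site had a median log2 change of -0.14. Of them 412 (66.9%) lay below 0, beside 44.9% of all compared genes with a 3′UTR. The 2431 genes with a 7-base but no 8-base site had a median of 0.03, and the 5212 genes without a site of 6 bases or more had a median of 0.07. Thus the 8-base genes stood apart from both other classes by more than those classes did from each other. Of the 8-base genes 8.12% (95% exact binomial interval 6.08% to 10.6%) were lowered 1.5-fold, of the 7-base genes 2.63% (2.03% to 3.35%) and of the genes without a site 2.51% (2.11% to 2.98%). These intervals treat genes as independent, which genes in 1 pair of libraries are not. Genes with GCTGCTA, the last 7 bases of the 8-base site, but no 7-base site numbered 432, with a median of -0.05 and 6.02% lowered. Genes whose longest site was the 6-base GCTGCT numbered 1881, with a median of 0.15.

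Medians were lower in genes with more sites in one transcript, which also had longer 3′UTRs. Genes with 0, 1, 2 and 3 or more 7-base sites in the transcript with the longest coding sequence had medians of 0.08, -0.02, -0.04 and -0.06, and 2.46%, 3.51%, 5.33% and 4.27% of them were lowered 1.5-fold. Their median 3′UTR lengths were 833, 2224, 3299 and 4649 bases, so that site number and length cannot be told apart here. For 8-base sites, 438 genes with 1 site had a median of -0.15, and 28 genes with 2 or more had a median of -0.23. Of these 28 genes 8 were lowered 1.5-fold and 0 were raised. Over all genes with any 7-base site, the median lay 0.09 below that of genes without one on the log2 scale, at -0.01 and 0.08.

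**Figure D3:**
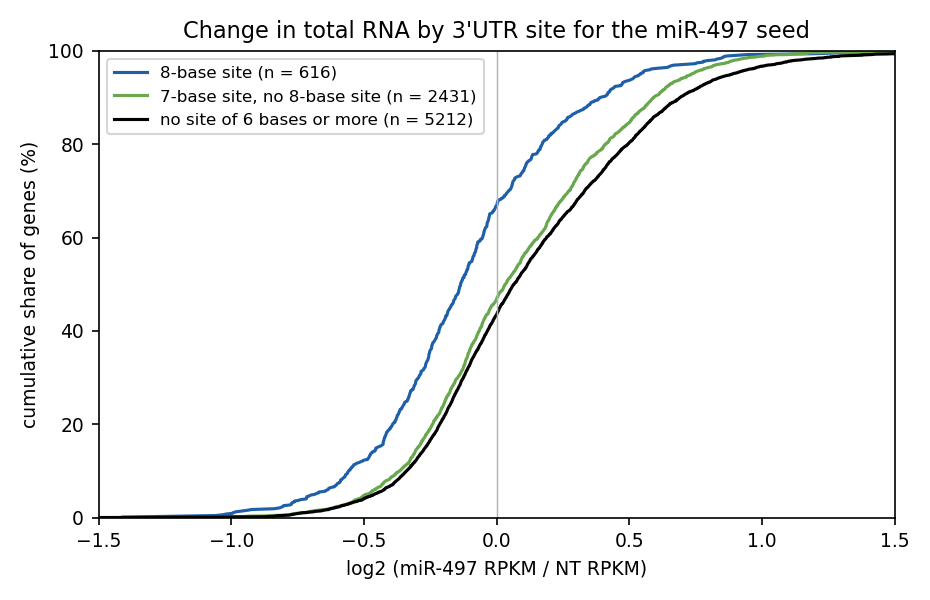
Cumulative share of genes (%) against log2 change in total RNA for genes with an 8-base site, with a 7-base but no 8-base site, and with no site of 6 bases or more. The 8-base curve lies to the left of the others, with 412 of 616 genes below 0, and the other curves lie close together.

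The changes also followed the composition and length of the 3′UTR, whether or not it held a site. The genes were split into 4 bins of nearly equal number. In the bin with the least A+U (up to 48%) the median log2 change was 0.50, and it was 0.17, -0.10 and -0.20 in the next bins. Of the genes raised 1.5-fold 988 lay in the first bin and 39 in the last, while of the genes lowered 7 lay in the first and 180 in the last. By 3′UTR length the medians went from 0.24 (up to 419 bases) to 0.13, 0.01 and -0.09 (2492 bases or more). The 2-fold raised genes accordingly had a median 3′UTR of 395 bases with 42.8% A+U, beside 1121 bases and 57.5% for all genes. Whether library preparation, transfection or the miRNA moved the changes with base composition was not tested.

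Within bins the 8-base genes still had the lower median in each case. Their median minus that of genes without a 7-base site was -0.16, -0.21, -0.15 and -0.12 from the lowest to the highest A+U bin, and -0.34, -0.21, -0.14 and -0.09 from the shortest to the longest 3′UTRs. For any 7-base site the difference lay between -0.12 and -0.08 in the A+U bins. By 3′UTR length it was -0.12 in the shortest bin but -0.01, 0.01 and 0.00 in the longer ones. A difference in medians for 7-base sites was thus not seen in the bins of 420 bases or more. The shares lowered 1.5-fold in these bins were 3.97%, 3.86% and 3.94% with any 7-base site, 8-base sites included. Without one they were 2.49%, 2.84% and 2.27%.

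**Figure D4:**
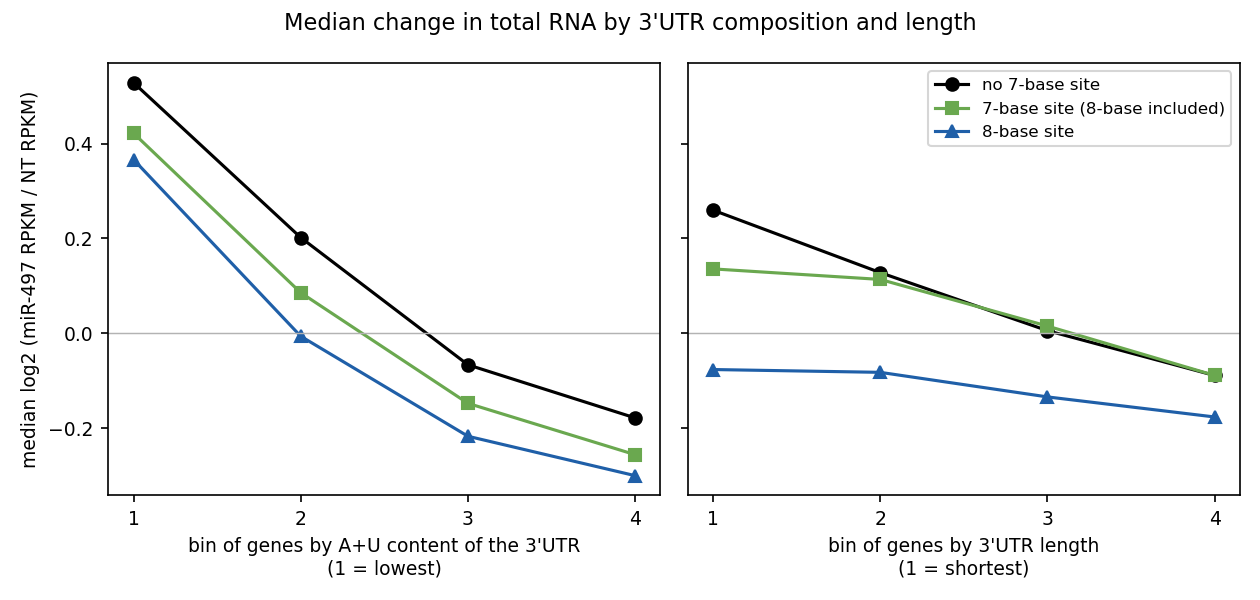
Median log2 change (vertical axis) for genes with no 7-base site, any 7-base site or an 8-base site, over 4 bins of equal gene number by A+U content (left) and by length (right) of the 3′UTR. All lines fall from the first to the last A+U bin, and the 8-base line is the lowest in each bin.

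The 40 genes lowered 2-fold included 23 with an annotated 3′UTR, of which 11 held a 7-base site (47.8%, beside 28.8% of all compared genes with a 3′UTR) and 5 an 8-base site. *RPS6KA3*, a ribosomal S6 kinase of the RSK family with 3 sites of 7 bases, was at 142 RPKM in NT and 68.4 RPKM with *miR-497* (ratio 0.480, 0.471 to 0.490), an example chosen after its values were seen. *SLC11A2*, the divalent metal transporter of iron uptake, holds its 8-base site in a transcript other than the one with the longest coding sequence, and was at 14.5 and 6.14 RPKM (0.422, 0.390 to 0.456). *UNC5B*, a netrin receptor, was at 1.05 and 0.504 RPKM (0.479, 0.357 to 0.639), a log2 change of -1.06 that was -0.45 with a pseudocount of 1. *CCNE1* and *WEE1* came next among genes with an 8-base site and inferred reads, followed inside 2-fold by *DEPDC4*, *MYBL1* (A-MYB), *TLK1* (tousled-like kinase 1), *DIXDC1*, *POLR3F* (an RNA polymerase III subunit) and *RFK* (riboflavin kinase), with log2 changes from -0.996 to -0.839.

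Other coding genes were lowered as strongly. Of the 23 genes lowered 2-fold with an annotated 3′UTR, 12 held no 7-base site, among them *TMX3*, *HAMP*, *GCSH* and *FAM72A*. Of these 12, 3 held GCTGCTA, *GCSH* among them, and 8 held no site of 6 bases or more. *TMX3*, a thioredoxin-related protein of the endoplasmic reticulum, was at 16.4 RPKM in NT and 6.87 RPKM with *miR-497* (0.419, 0.388 to 0.452). Its level with *miR-195* was 17.1 RPKM, close to NT. *HAMP*, which encodes the iron hormone hepcidin, was at 16.8 and 7.35 RPKM (0.438, 0.338 to 0.564), and at 2.16 RPKM with *miR-195*. *RBM24*, an RNA-binding protein gene with a 7-base site, was at 5.22 and 2.37 RPKM and at 6.46 RPKM with *miR-195*, and its log2 change of -1.14 was -0.92 after centring. The lowered *GCSH*, *FAM72A*, *HSPA1B* and *SYPL1* have near-identical gene copies or pseudogenes, and how reads were shared between copies is not given in the sources used here.

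A list of *miR-15* family targets from the literature had 24 of 28 members compared, with a median of -0.32. Lowered 2-fold were 4 (16.7%, beside 0.356% of all genes) and lowered 1.5-fold 7 (29.2%, beside 3.11%, and 10 after centring). Of the 24, 22 held a 7-base site, and some, such as *CCNE1*, *CDK6* and *WEE1*, were also counted in the lists above. *ARL2*, a small GTPase with an 8-base site, was at 11.8 and 4.45 RPKM, without an interval, and had the lowest ratio of the list, followed by *CCNE1*, *WEE1* and *CDK6*. *CHEK1*, the DNA damage checkpoint kinase, was at 22.9 and 15.1 RPKM. The apoptosis inhibitor *BCL2* and the transcription factor *MYB* were under 0.1 RPKM in both libraries and were not compared.

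Signaling and RNA-handling groups were mixed. Of 21 TGF-beta and SMAD genes compared, 11 held a 7-base site. Lowered 1.5-fold were 3 of the 21 (14.3%, beside 3.11% of all genes, and 2 after centring), each with a site. These were the ubiquitin ligase gene *SMURF2* (17.8 and 9.25 RPKM), the BMP receptor gene *BMPR1A* (8.12 and 4.68 RPKM) and the activin receptor gene *ACVR2B* (4.87 and 2.85 RPKM). In the insulin, PI3K and RAF list 19 of 29 held a 7-base site. Lowered 1.5-fold were 0 (beside 3.11% of all genes) and raised 6 (20.7%, beside 13.2%). Of the 6, 2 were raised 2-fold (6.90% of the 29, beside 2.64%). *PIK3R3*, a regulatory subunit of PI3K that holds an 8-base site, was at 1.79 and 4.83 RPKM (2.69, 2.34 to 3.10), and *IGF2* was at 3.88 and 10.9 RPKM. Among 21 mRNA decay genes, 5 with a 7-base site, 1 was lowered 1.5-fold (4.76%, beside 3.11% of all genes). This was the decapping enzyme gene *DCP2*, at 15.7 and 8.12 RPKM (0.516, 0.489 to 0.544). The 13 Argonaute, GW182 and miRNA processing genes, 9 with a 7-base site, held none past 1.5-fold. *EIF2C2*, which encodes Ago2, was at 8.89 and 7.42 RPKM.

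Genes of sterol and fatty acid synthesis, which SREBP transcription factors control, were higher with *miR-497*. Of 30 listed 29 were compared, 28 lay above 0 and the median log2 change was 0.54. Of the 29, 12 were raised 1.5-fold (41.4%, beside 13.2% of all compared genes) and 4 were raised 2-fold (13.8%, beside 2.64%). *MVD*, mevalonate diphosphate decarboxylase, was raised from 24.6 RPKM in NT to 68.4 RPKM with *miR-497* (ratio 2.78, 2.60 to 2.98). *LSS*, lanosterol synthase, and *MVK*, mevalonate kinase, were at 20.05 and 43.7 RPKM and at 8.50 and 17.2 RPKM. *FASN*, fatty acid synthase, was at 55.9 and 104.9 RPKM, inside 2-fold. *IDI1* lay below 0 at 151 and 147 RPKM. With *miR-195* the list's median was 0.60 against the same NT library, with *MVD* at 49.97 RPKM. After centring the median with *miR-497* was 0.45, with 7 raised 1.5-fold.

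Part of the interferon and dsRNA response list was higher as well. Of 37 genes 23 were compared, with a median of 0.42. Of the 23, 9 were raised 1.5-fold (39.1%, beside 13.2% of all compared genes) and 4 were raised 2-fold (17.4%, beside 2.64%). These 4 were under 1 RPKM in NT and were compared only through their level with *miR-497*, *IFI27* at 0.558 and 2.28 RPKM (4.08, 1.97 to 9.49), *IFI6* at 0.517 and 1.39 RPKM, the RNA sensor gene *DHX58* at 0.448 and 1.04 RPKM and the immunoproteasome gene *PSMB9* at 0.733 and 1.48 RPKM. With an RPKM of at least 1 in both libraries, 19 genes had a median of 0.28 and 5 were raised 1.5-fold. Among more abundant members *IFITM3* was at 65.0 and 120.4 RPKM (1.85, 1.72 to 1.99) and *ISG15* at 12.7 and 22.4 RPKM. *IFNB1* and *CXCL10*, markers of a strong response, were listed at 0 in both libraries. The kinase gene *EIF2AK2*, PKR, was at 18.7 and 15.2 RPKM.

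The share of p53 targets raised 1.5-fold, 13.0%, lay at the background of all compared genes, 13.2%. Of 23 compared 3 were raised and 0 lowered, with a median of 0.28 (0.04 after centring). The raised members were *BBC3*, the pro-apoptotic PUMA, at 1.20 and 2.96 RPKM (2.47, 1.85 to 3.35), *PLK3* at 4.33 and 6.63 RPKM and *FDXR* at 34.1 and 52.2 RPKM. *MDM2*, the p53 ubiquitin ligase, lay below 0 at 46.2 and 37.8 RPKM. In the BCL2 family *BAK1*, a pore-forming effector, was raised 2-fold beside *BBC3*, at 3.83 and 7.77 RPKM (2.03, 1.72 to 2.39). Of this family 3 of 14 were raised 1.5-fold (21.4%, beside 13.2% of all compared genes).

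Hepatocyte products were largely maintained. The 24 liver plasma proteins had a median of 0.17 with 4 raised 1.5-fold (16.7%, beside 13.2% of all compared genes, and 1 after centring). None was lowered 1.5-fold (beside 3.11%), and their summed level was 9386 RPKM in NT and 9445 RPKM with *miR-497*. The 14 apolipoprotein and lipoprotein assembly genes had a median of 0.40, with *APOA1* at 635 and 958 RPKM and *APOE* at 314 and 512 RPKM, but the median was -0.01 after centring. None of 18 hepatocyte transcription factors passed 1.5-fold, and *HNF4A* was at 40.0 and 49.5 RPKM. *ALB*, albumin, was at 61.4 and 53.4 RPKM. *FTL*, ferritin light chain, one of the 10 most abundant transcripts in NT, was at 2150.4 and 3218 RPKM (1.496, 1.48 to 1.51).

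Housekeeping and stress groups lay mostly within 1.5-fold, but the medians of several lay above the 0.06 of all genes. The 74 cytosolic ribosomal protein genes had a median of 0.23 with 9 raised (12.2%) and 1 lowered (1.35%) 1.5-fold. The 76 respiratory chain genes had a median of 0.18 with 9 raised (11.8%) and 0 lowered. Of all compared genes 13.2% were raised and 3.11% lowered 1.5-fold. Of the ribosomal genes 9 (12.2%) lay below 0 and of the respiratory chain genes 19 (25%), beside 44.5% of all compared genes. After centring the medians were 0.18 and 0.12, and 4 and 0 were raised. The lowered ribosomal gene, *RPL21*, and the one raised 2-fold, *RPS28*, were at 3.91 and 1.04 RPKM and at 0.423 and 1.10 RPKM, low levels in a family with many pseudogenes. The proteasome list had a median of 0.06 with 2 of 36 raised (5.56%) and 1 lowered (2.78%), *PSMD5* at 32.2 and 19.1 RPKM. The ATF4 and unfolded protein response list had a median of 0.03 with 1 of 24 raised (4.17%), *SDF2L1*, and 1 lowered (4.17%), *ASNS*. Immediate early genes had a median of 0.22 with 3 of 20 raised (15%) and 1 lowered (5%), *EGR1* at 7.17 and 4.20 RPKM. Medians were 0.30 for 7 metallothioneins (0 past 1.5-fold) and 0.24 for 23 hypoxia and glycolysis genes (2 raised, or 8.70%, and 0 lowered). After centring these medians were 0.12 and 0.024, and 0 of the 23 were raised.

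**Figure D5:**
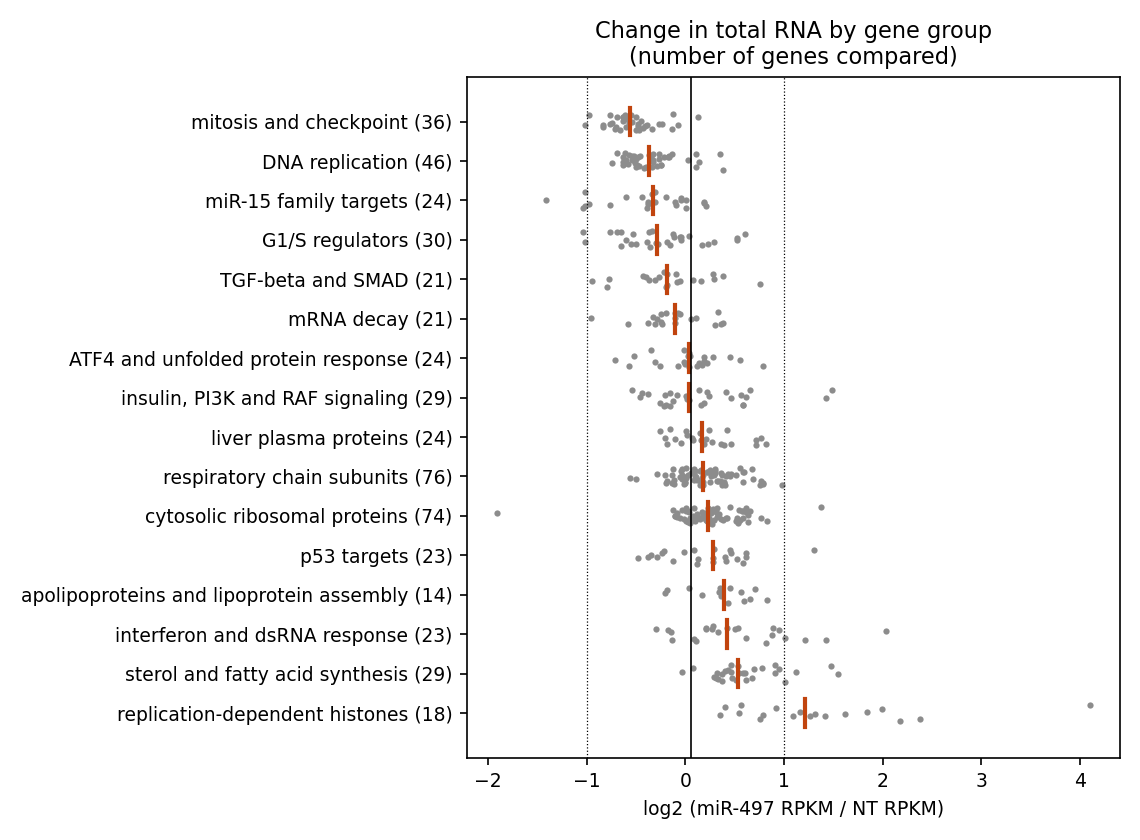
Log2 change in total RNA of the compared members of 16 gene groups (grey points), with the group median (red bar), the median of all genes (solid line) and 2-fold either way (dotted lines). The mitosis group is centred at -0.56 and lies almost wholly below 0, the sterol group is centred at 0.54 and lies almost wholly above it, and the histone group reaches furthest to the right.

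Transcripts known to lack a poly-A tail gave the largest increases among genes with at least 20 inferred reads. *RMRP*, the RNA of the MRP ribonuclease, was at 1.96 RPKM in NT and 34.0 RPKM with *miR-497*, from 13 and 282 reads (ratio 17.3, 9.97 to 32.9). *RPPH1*, the RNA of ribonuclease P, was at 2.49 and 34.0 RPKM, from 21 and 359 reads (13.7, 8.80 to 22.3). Both were lower in the *miR-195* library, at 5.34 and 6.30 RPKM. Replication-dependent histone genes, whose messengers end in a stem-loop, had 18 of 66 members compared (34 were listed at 0 in NT), with a median of 1.21. Raised 2-fold were 11 of the 18 (61.1%, beside 2.64% of all compared genes), and 0 were lowered. Their summed level over the whole list was 26.3 RPKM in NT, 29.2 with *miR-195* and 53.4 with *miR-497*. Of the 18, 10 were under 1 RPKM in NT and were compared only through their level with *miR-497*, and 10 of the 11 raised 2-fold were among these. With an RPKM of at least 1 in both libraries 8 genes had a median of 0.66 and 4 were raised 1.5-fold, and with a pseudocount of 1 the median of the 18 was 0.65. *HIST1H1E*, a linker histone, had 2 reads in NT and 43 with *miR-497* (0.103 and 1.77 RPKM), and *HIST1H3B*, a histone H3 gene, had 5 and 25. Near-identical histone copies make single values uncertain.

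Not all such RNAs were higher. C/D box small nucleolar RNAs, which guide RNA methylation, had 112 of 227 compared and a median of 0.03, with log2 changes from -3.32 to 2.48. At 1.5-fold 22 were raised (19.6%) and 24 lowered (21.4%), beside 13.2% and 3.11% of all genes. Their summed level was 1152 RPKM in NT and 1137 RPKM with *miR-497*. The H/ACA and Cajal body RNAs had a median of -0.00 over 67 compared, with 16 raised (23.9%) and 9 lowered (13.4%). Single members of both groups thus spread more widely than all genes around medians near 0. *MALAT1*, a nuclear RNA with a processed end, was at 26.0 and 24.2 RPKM. *RMRP* and the histones were abundant in the Ago2-IP libraries (*RMRP* at 4826 RPKM in NT and 3511 RPKM with *miR-497*, *HIST1H3B* at 41.0 and 22.1 RPKM). The libraries were made with or without poly-A selection, and which had it is not given, so the part of selection in these increases was not tested.

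Coding genes with the largest increases were weakly expressed in NT. *SLC26A9*, an epithelial anion transporter, had the most reads among the leading ones, with 80 in NT and 545 with *miR-497* (0.674 and 3.67 RPKM, ratio 5.44, 4.30 to 6.97). It was at 4.99 RPKM with *miR-195*. *ERP27*, a protein of the endoplasmic reticulum, was at 0.974 and 3.72 RPKM (3.82, 2.67 to 5.604) and at 4.02 RPKM with *miR-195*. *IL17B*, a cytokine, *TMEM190* and *ACY3* each rested on fewer than 10 reads in NT.

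In the Ago2-IP libraries of the same conditions, where RNA bound to Ago2 was sequenced, *CCNE1* was at 8.53 RPKM in NT and 9.74 RPKM with *miR-497*, while its total RNA level was lowered 2-fold. *CDK6* was at 23.7 and 17.8 RPKM there, *CDC25A* at 8.45 and 4.81 RPKM, and *WEE1* at 14.8 and 7.79 RPKM. The median log2 change in Ago2-IP RPKM was -0.21 for genes with an 8-base site and -0.26 for genes without a site of 6 bases or more. The Ago2-IP level of *CCNE1* thus did not follow its total RNA level, while those of *CDC25A* and *WEE1* were lower on both sides.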

How the data were processed

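The authors sequenced total RNA and Ago2-IP RNA of Hep G2 cells as 36-base single reads, mapped them to hg19 with ELANDv2, and calculated the deposited RPKM of each gene and library with CASAVA 1.7. Gene annotation, read filters and the libraries with poly-A selection are not given in the sources used here. RPKM were used as deposited. The table has 21891 lines for 21863 symbols, and repeated lines of 28 symbols were averaged. Log2 ratios of *miR-497* to NT were taken without a pseudocount for genes above 0 in both libraries and at 1 or more in one of them. With 1 library per condition no p-values were calculated. Since the RPKM of a gene are multiples of the worth of 1 read, reads were inferred as the smallest whole numbers (tolerance 0.01 read) that implied an annotated transcript length to within 1.5-fold, which succeeded for 12966 of 15487 genes with values in at least 3 libraries. The procedure was tested on simulated data.

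Sites were searched in 3′UTRs of GENCODE release 44 on GRCh37 (hg19), to which 18208 symbols matched directly, 2226 through a unique older symbol and 1429 not at all. Mature miRNAs came from RefSeq, and both matched by name. The genes and lists, and this comparison, were chosen with earlier results of these data known. Named were the 8 reporter genes, the 12 coding and 5 other genes most raised and most lowered with at least 20 inferred reads over both libraries, the 10 most lowered with an 8-base site, the 3 furthest members of each list, with all past 2-fold where these were 5 or fewer, and the 10 most abundant in NT. Not all are named in the text, some items are not reported here, and others were added as examples after their values were seen. Alternatives were 2 scalings, 2 pseudocounts, other minimum RPKM, folds and sites, 1 transcript per gene, and centring. Python 3.11.15 with numpy 2.4.6, pandas 2.3.3, scipy 1.17.1 and matplotlib 3.10.9 was used.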

Additional observations from a re-analysis of the deposited data

How the results depend on the processing

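The site difference of -0.09 was -0.21 for 8-base sites, -0.066 after centring on 3′UTR length and A+U content, and -0.021 for 6-base sites, with an interval over genes (-0.044 to 0.0015) that included 0. It lay below 0 under the alternatives, but not in 2 of the 4 bins of 3′UTR length. The share of site genes lowered 1.5-fold, 3.74%, was 5.51% with median scaling, 4.86% with trimmed sum scaling, 2.46% with a pseudocount of 1, 5.78% with every gene above 0 in both, 8.12% for 8-base sites and 3.08% for 6-base sites. The 297 raised and 40 lowered genes became 69 and 13 with a pseudocount of 1, 171 and 23 with an RPKM of at least 1 in both libraries, 985 and 311 with every gene above 0 in both, and 1477 and 349 at 1.5-fold. Of 60 genes named by level or rank, 35 were past 2-fold, and 17 with a pseudocount of 1. After centring, which leaves 50 of them, 20 were past 2-fold. The apolipoprotein list's median turned from 0.40 to -0.010 after centring, and those of the metallothionein and hypoxia lists went from 0.30 and 0.24 to 0.12 and 0.024. Median scaling shifted all changes by 0.06. Of 26 lists with at least 5 compared members, 11 had a median below that of all genes, 11 or 12 of 26 did under the alternatives other than centring, and 12 of the 24 lists with annotated 3′UTRs did after centring. The causes were not tested, beyond what each alternative does by construction. No paired analysis was possible because each condition has 1 library and the labels give no replicate numbers. Depth limits genes near 1 RPKM: 63 of the 297 raised and 15 of the 40 lowered genes had under 20 inferred reads in a library.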

Other observations

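The strand opposite to the *miR-497* guide, *miR-497-3p*, has a seed that pairs with GTGGTTT. The 2268 compared genes with this word in a 3′UTR had a median log2 change of -0.10, and the 8304 without it had a median of 0.11. Their median 3′UTR lengths were 2500 and 886 bases, so that this difference cannot be told apart from that of 3′UTR length.

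Of the genes left out of the comparison, 1020 were listed at 0 in NT only, 456 with *miR-497* only and 5619 in both. Of those at 0 in NT, 12 reached 1 RPKM with *miR-497*, among them *HIST1H2BF* at 1.05 RPKM, and 4 of those at 0 with *miR-497* reached 1 RPKM in NT.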
